A study of Danio rerio with 20 samples.

Results

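The genes described here carry out glucose uptake, glycolysis, lactate production and export, and glycogen turnover. They were taken from a list of 40 zebrafish gene symbols, and every gene in the count table whose symbol, case ignored, equalled a listed symbol, or a listed symbol without its a or b paralog letter, was kept. Of the 40 symbols, 39 found at least 1 gene, which gave 47 of the 32266 Ensembl genes in the table. The list was arranged in 17 steps. The listed pgk1 found no gene, which left its step empty. Where several genes share a symbol, the table does not say which is the a and which the b paralog, so the Ensembl identifier is printed.

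Glycolysis splits glucose into pyruvate in the cytosol and yields a small net amount of ATP. Lactate dehydrogenase interconverts pyruvate and lactate, and monocarboxylate transporters carry lactate across the plasma membrane. Glycogen is the stored polymer of glucose, which glycogen phosphorylase breaks down and glycogen synthase extends. In the mammalian nervous system oligodendrocytes are known to release lactate that axons can burn, and most glycogen is found in astrocytes.

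The study measured messenger RNA in sorted spinal cord cells of adult Tg(olig2:eGFP) zebrafish, in which the olig2 regulatory region drives green fluorescent protein. Both groups carried that transgene and were anaesthetised and operated. There were 10 libraries from fish at 7 days after transection of the cord (lesion) and 10 from fish whose cord was left uncut (sham). Per the labels' protocols, 9 cords were used per group, each giving a piece of about 0.5 mm, and the living green cells, which the labels call oligodendrocyte progenitor cells (OPCs), were sorted. Because all pieces from a group went into the same dissociation, its 10 libraries may be portions of 1 pool of cells. P-values therefore measure only the spread between libraries, which may be technical. The olig2 reporter marks cells by olig2 activity and is not limited to progenitors, since motor neuron precursors and some radial glia of zebrafish are known to use olig2 as well.

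Total counts ran from 7371761 to 9196227 in lesion libraries and from 7134670 to 10264810 in sham libraries. Sample titles end in a letter A or B with a number, A in 6 and B in 4 libraries of each group. The number is lower in every sham title than in every lesion title. What the number stands for is not stated, and any effect tied to it cannot be told apart from the lesion. Genes with at least 1 count ran from 13562 to 16518 in lesion libraries and from 10328 to 13117 in sham libraries, without overlap (permutation p = 2e-05, two-sided, 100000 resamples). Levels are in CPM, counts scaled to a library of 1000000 after TMM correction of library sizes. The listed oligodendrocyte-lineage markers matched 12 genes, all with counts, while the listed nkx2.2a matched none. The summed level of the 12 genes was 47735 to 98437 CPM in lesion libraries and 72583 to 118131 CPM in sham libraries. Among the 11 of them that were tested, 1 was higher and 3 were lower after lesion in edgeR's test. Of all tested genes, 4.34% were higher and 3.24% lower. The summed level of the 16 genes matched by radial glia or astroglia markers was 5743 to 10093 CPM in lesion libraries and 7402 to 11782 CPM in sham libraries. Of the 12 tested, 5 were higher and 3 lower. The higher ones were GFAP, S100B, both VIM genes and FOXJ1, which averaged 81.2 CPM in lesion and 0.446 CPM in sham libraries. The lower ones were SLC1A3 ENSDARG00000104431 and both GLUL genes. The GLUL genes weighed most in the sum, with sham means of 3036 and 4082 CPM. Neuron markers summed to 645 to 1440 CPM in lesion libraries and 582 to 1426 CPM in sham libraries, with 0 of 9 tested past the threshold in edgeR, 1 at an unadjusted p under 0.05, and 1 called each by DESeq2 and limma-voom. Motor neuron markers had a summed median of 28.8 CPM and a highest value of 352 CPM in lesion libraries, against a median of 0 and a highest value of 0.11 CPM in sham libraries. Of them, ISL1 had counts in 6 and MNX1 in 5 lesion libraries and both in 0 sham libraries. Microglia, endothelial, red cell and muscle markers had medians of at most 11.8 CPM in the lesion group and 5.71 CPM in the sham group. Microglia markers reached 237 CPM in a lesion library and 90.4 CPM in a sham library. Endothelial markers reached 102 CPM in a lesion library and 26.4 CPM in a sham library. The part of these differences in the results below was not tested. Fits with the detected-gene number as a covariate are given below. They cannot separate that number from the lesion, because it did not overlap between the groups. In bulk samples fewer cells of a type and less RNA per cell cannot be told apart.

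Of the 47 genes, 35 had enough counts to be tested and 12 did not. In edgeR's quasi-likelihood test with Benjamini-Hochberg adjustment over 10467 genes, 3 of the 35 were higher after lesion and 1 was lower at an adjusted p under 0.05. The higher genes were PFKFB3, the enzyme that sets the level of a phosphofructokinase activator, GAPDHS, a glyceraldehyde-3-phosphate dehydrogenase, and pgam1a, a phosphoglycerate mutase. The lower gene was PYGL, which in mammals is the liver-type glycogen phosphorylase. These calls make up 11.4% of the tested genes of the list, where 7.58% of all tested genes were called. By direction, 8.57% of the list was higher beside 4.34% of all genes, and 2.86% was lower beside 3.24% of all genes. Without adjustment, 11 of the 35 had a p under 0.05, or 31.4% beside 15.7% of all genes, and 8 of these 11 pointed upward. The median log2 fold change was 0.10 over the 35 genes and 0.03 over all genes, and 57.1% of the list had a log2 fold change above 0 beside 51.6% of all genes.

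**Figure D1:**
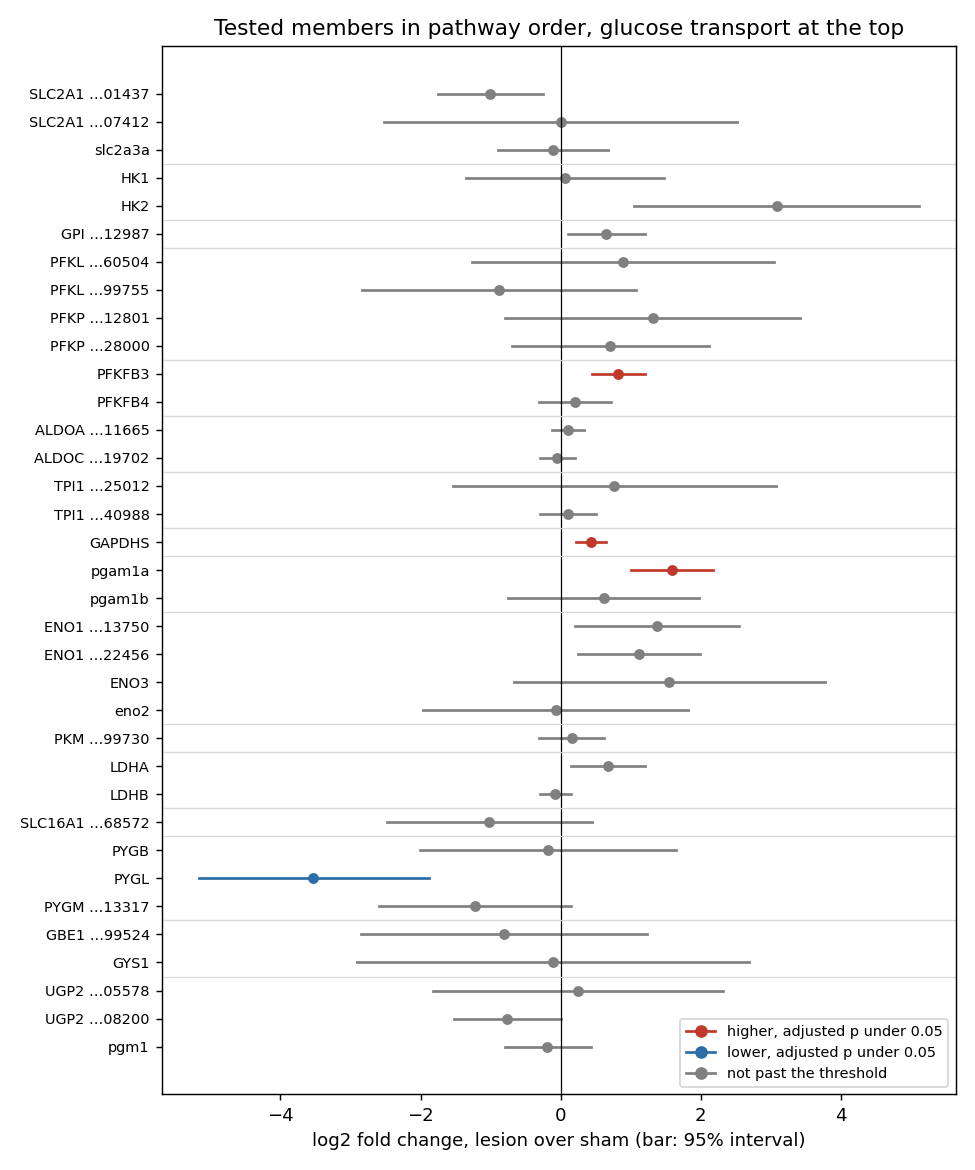
Log2 fold change of lesion over sham (x axis) for the 35 tested genes in pathway order, glucose transport at the top; bars are 95% intervals from edgeR's test, red is higher and blue lower at an adjusted p under 0.05, grey did not pass. The points in colour are PFKFB3 at 0.82, GAPDHS at 0.43, pgam1a at 1.59 and PYGL at -3.53, and the bars widen for genes with few counts.

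Glucose enters cells through facilitated transporters, of which 3 listed genes were measured and none passed the test. SLC2A1 ENSDARG00000001437, a basal glucose transporter, had a lowest, median and highest level of 18.8, 40.5 and 67.2 CPM in lesion libraries, against 9.93, 84.9 and 176 CPM in sham libraries. All 10 lesion libraries lay below the sham median and 6 sham libraries exceeded the highest lesion library, but the groups overlapped. The log2 fold change of -1.01 ± 0.36 (SE) did not pass (edgeR adjusted p = 0.105). Without sham replicate 7, the library at 9.93 CPM, its edgeR adjusted p was 0.0128, and DESeq2's test called it lower with all libraries (log2 fold change -1.07, adjusted p = 0.03). The transporter slc2a3a, in mammals the neuronal type, had 37.8, 77.5 and 160 CPM in lesion libraries, against 18.7, 60.1 and 254 CPM in sham libraries, and the lesion range lay inside the sham range. The other SLC2A1 gene, ENSDARG00000007412, had a median of 3.98 CPM with counts in 10 of 10 lesion libraries, against 0.166 CPM with counts in 5 of 10 sham libraries. Its mean was nonetheless 4.82 CPM in lesion libraries and 4.82 CPM in sham libraries, and its highest value, 37.8 CPM, was in a sham library. The 95% interval of its log2 fold change ran from -2.52 to 2.52, so edgeR's test resolved no direction. Per kilobase of exon, SLC2A1 ENSDARG00000001437 averaged 23.9 ± 8.5 CPM in lesion libraries and 48.1 ± 27.0 CPM in sham libraries (SD, n = 10 each), and slc2a3a 20.9 ± 9.96 CPM in lesion libraries and 22.5 ± 18.5 CPM in sham libraries.

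Hexokinase traps glucose in the cell as glucose 6-phosphate. HK2, in mammals the inducible form, lies on chromosome 5 (13370084 to 13503972, build GRCz10). It had 58.4, 143 and 241 CPM as lowest, median and highest in lesion libraries, against 0, 5.43 and 77.2 CPM in sham libraries. All 10 lesion libraries had HK2 counts and 8 exceeded the highest sham library, while 4 of the 10 sham libraries had none. The log2 fold change was 3.09 ± 0.99 (95% interval 1.05 to 5.12), which did not pass with an unadjusted p of 0.00467 and an edgeR adjusted p of 0.0591. DESeq2's test, which called 12.9% of the genes it gave an adjusted p, put HK2 past the threshold (adjusted p = 0.0345), as did limma-voom, which called 16.9% and moved the median log2 fold change of all genes to 0.70 (adjusted p = 0.00102). It also passed in edgeR without the filter on low counts (adjusted p = 0.0374) and without sham replicate 1, its highest sham library (adjusted p = 0.0238). In edgeR it did not pass with the detected-gene number as a covariate (3.49, adjusted p = 0.589) or in title letter A or B libraries alone (adjusted p = 0.238 and 0.615). Nor did it pass without lesion replicates 2, 9 and 10, the lesion libraries with the most detected genes (3.06, edgeR adjusted p = 0.17). The last 3 of these fits also had fewer libraries. HK1, the constitutive form, had 17.1, 60.8 and 85.0 CPM in lesion libraries, against 0, 23.1 and 164 CPM in sham libraries, with a log2 fold change of 0.06. Counted per kilobase of exon, HK2 made up 77.1 ± 11.9% of the hexokinase level in lesion libraries (SD, n = 10). In sham libraries it made up 32.8 ± 38.8% (SD, n = 9), because sham replicate 3 had no counts of either gene and so no share. In single sham libraries either gene could be at or near 0, so that the share varied widely.

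Glucose-6-phosphate isomerase makes fructose 6-phosphate. GPI ENSDARG00000012987 had 144, 204 and 267 CPM in lesion libraries, against 40.9, 114 and 281 CPM in sham libraries. All 10 lesion libraries exceeded the sham median, but the highest value of all was in a sham library, and the log2 fold change of 0.65 ± 0.26 did not pass (edgeR adjusted p = 0.178). The log2 fold change turned to -0.28 with the detected-gene number as a covariate. GPI ENSDARG00000012987 passed in limma-voom, which called 16.9% of all genes (adjusted p = 0.0238). It also passed in 1 of 20 edgeR fits made without a single library (sham replicate 7, its highest sham library, adjusted p = 0.0453).

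Phosphofructokinase commits the sugar to glycolysis. Its 4 tested genes, PFKL ENSDARG00000060504, PFKL ENSDARG00000099755, PFKP ENSDARG00000012801 and PFKP ENSDARG00000028000, had log2 fold changes of -0.88 to 1.31, with edgeR adjusted p-values of at least 0.689. Their levels were low and uneven between libraries. The leading gene, PFKP ENSDARG00000028000, in mammals the platelet type, had 19.3, 77.4 and 117 CPM in lesion libraries, against 0, 40.6 and 87.8 CPM in sham libraries. It made up 72.1 ± 19.4% of the per-kilobase phosphofructokinase level in lesion libraries and 55.1 ± 28.9% in sham libraries. The 2 muscle-type PFKM genes had at most 7 counts each in all libraries and were not tested.

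PFKFB3 makes and breaks fructose 2,6-bisphosphate, the strongest known activator of phosphofructokinase, and lies on chromosome 4 (25483768 to 25496261). Its level was 678, 1154 and 1756 CPM in lesion libraries, against 397, 661 and 882 CPM in sham libraries. All 10 lesion libraries exceeded the sham median and 6 exceeded the highest sham library. Lesion replicates 1, 5, 7 and 9 stayed between 678 and 866 CPM, inside the sham range. PFKFB3 rose 1.77-fold, a log2 fold change of 0.82 ± 0.18 (95% interval 0.44 to 1.20; edgeR adjusted p = 0.00431). The call was lost among the title letter A libraries (log2 fold change 0.65, edgeR adjusted p = 0.163) and among the title letter B libraries (1.08, adjusted p = 0.0895). It was kept with the detected-gene number as a covariate (log2 fold change 1.40, edgeR adjusted p = 0.0247). PFKFB4, a second enzyme of the same kind, had 66.0, 108 and 250 CPM in lesion libraries, against 58.3, 103 and 185 CPM in sham libraries, and did not pass (log2 fold change 0.21 ± 0.25, edgeR adjusted p = 0.872). Per kilobase, PFKFB3 made up 88.8 ± 5.1% of the pair in lesion libraries and 84.4 ± 4.6% in sham libraries (SD, n = 10 each).

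**Figure D2:**
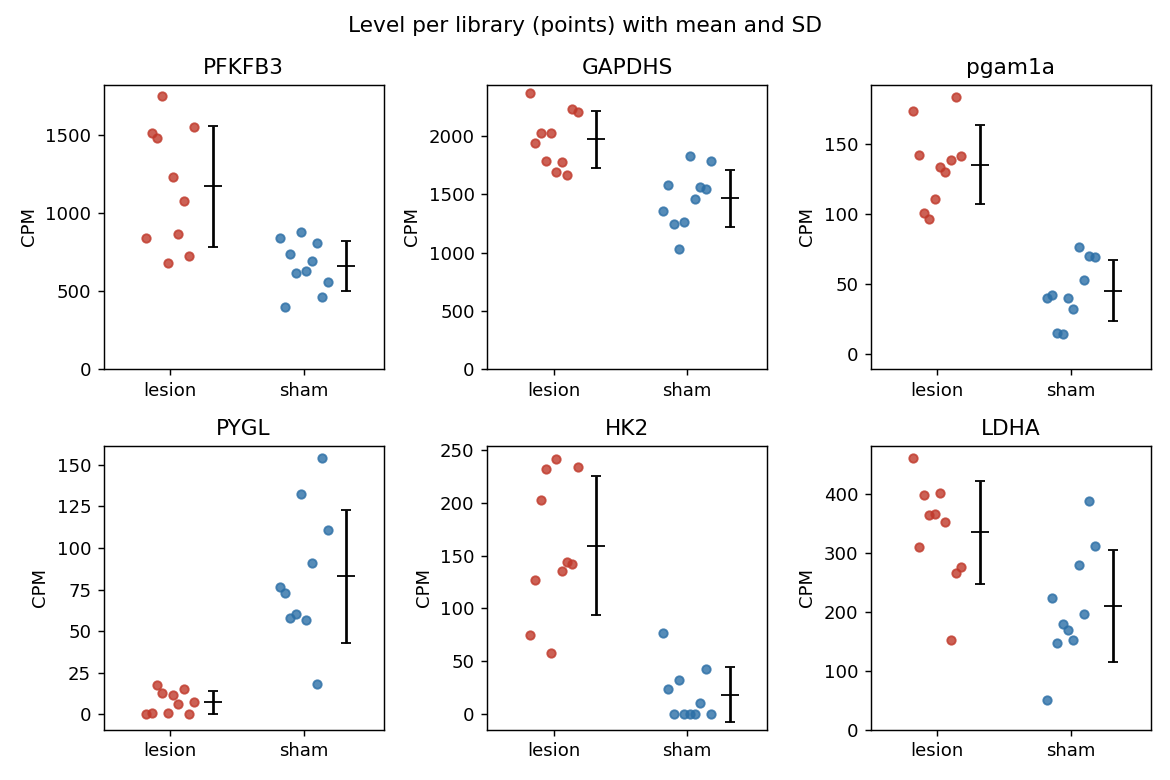
Level in CPM (y axis, linear) in each of the 10 lesion (red) and 10 sham (blue) libraries for PFKFB3, GAPDHS, pgam1a, PYGL, HK2 and LDHA; horizontal ticks with bars are the mean and SD. The lesion and sham points of pgam1a and of PYGL do not overlap, those of PFKFB3 and GAPDHS overlap in part, and HK2 lies at or near 0 in several sham libraries.

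Aldolase and triosephosphate isomerase make the 3-carbon sugars. ALDOA ENSDARG00000011665 had 433, 495 and 594 CPM in lesion libraries, against 339, 484 and 571 CPM in sham libraries. ALDOC ENSDARG00000019702, in mammals the brain aldolase, had 549, 695 and 853 CPM in lesion libraries, against 486, 749 and 919 CPM in sham libraries. Both had wide overlap and narrow intervals, -0.13 to 0.33 for ALDOA and -0.30 to 0.20 for ALDOC on the log2 scale. The leading isomerase gene, TPI1 ENSDARG00000040988, had 231, 315 and 461 CPM in lesion libraries, against 118, 316 and 492 CPM in sham libraries (95% interval of the log2 fold change -0.30 to 0.50). TPI1 ENSDARG00000025012 had a median of 14.3 CPM with counts in all 10 lesion libraries, against 3.42 CPM with counts in 6 of 10 sham libraries. Its highest value, 41.4 CPM, was in a sham library. The log2 fold change of 0.76 ± 1.12 did not pass (edgeR adjusted p = 0.914), while limma-voom called the gene higher (adjusted p = 0.0284).

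Glyceraldehyde-3-phosphate dehydrogenase feeds NADH to the cell and was represented almost wholly by GAPDHS, on chromosome 16 (45077926 to 45103166), whose mammalian namesake is the sperm isozyme. GAPDH itself, ENSDARG00000043457, had 0 counts in lesion libraries and 2 in sham libraries. GAPDHS had the highest CPM of the 47 genes in all 20 libraries. Its level was 1668, 1982 and 2373 CPM in lesion libraries, against 1033, 1502 and 1832 CPM in sham libraries. All 10 lesion libraries exceeded the sham median and 6 exceeded the highest sham library. GAPDHS rose 1.35-fold, a log2 fold change of 0.43 ± 0.10 (95% interval 0.22 to 0.64; edgeR adjusted p = 0.0077). The call was lost with the detected-gene number as a covariate (log2 fold change 0.11, edgeR adjusted p = 1), in the title letter B libraries (0.22, adjusted p = 0.921) and without lesion replicates 2, 9 and 10 (0.37, adjusted p = 0.0838).

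Phosphoglycerate kinase, the next enzyme, has no gene under its listed symbol. The name table gives the phosphoglycerate kinase gene ENSDARG00000054191 on chromosome 21 (37761018 to 37776965) the symbol PGK2, which lies outside the list and outside the counts above. Its level was 361, 470 and 566 CPM in lesion libraries, against 139, 227 and 357 CPM in sham libraries, and every lesion library exceeded every sham library. PGK2 rose 1.87-fold (log2 fold change 0.91 ± 0.16, edgeR adjusted p = 0.000325), a call lost in the title letter B libraries alone (adjusted p = 0.274). It was described because the listed step would otherwise have no value.

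Phosphoglycerate mutase moves the phosphate before enolase acts. The gene pgam1a, on chromosome 13 (31262742 to 31267537), had 96.6, 136 and 184 CPM in lesion libraries, against 14.01, 40.8 and 76.4 CPM in sham libraries. Its groups did not overlap, which held for 2.01% of all tested genes and for 5.71% of the 35, namely pgam1a and PYGL. It rose 3.01-fold, a log2 fold change of 1.59 ± 0.28 (95% interval 1.01 to 2.17; edgeR adjusted p = 0.000387). The call was lost with the detected-gene number as a covariate (log2 fold change 0.76, edgeR adjusted p = 0.871) and in the title letter B libraries (1.01, adjusted p = 0.273), while in the title letter A libraries it was 2.03 (adjusted p = 0.00473). Its paralog pgam1b had 9.33, 24.7 and 61.6 CPM in lesion libraries, against 0.122, 20.1 and 50.6 CPM in sham libraries, with 0.62 ± 0.66 as log2 fold change (edgeR adjusted p = 0.835). Per kilobase, pgam1a held 87.2 ± 7.5% of the pair in lesion libraries and 77.9 ± 17.5% in sham libraries.

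Enolase makes phosphoenolpyruvate, and 4 genes were tested. ENO1 ENSDARG00000022456 had 187, 283 and 447 CPM in lesion libraries, against 2.56, 142 and 271 CPM in sham libraries, and 6 lesion libraries exceeded the highest sham library. ENO1 ENSDARG00000013750 had 93.2, 173 and 295 CPM in lesion libraries, against 0, 70.2 and 147 CPM in sham libraries, and 8 lesion libraries exceeded the highest sham library. Every lesion value of both genes lay above the sham median, but neither gene passed. Their log2 fold changes were 1.12 ± 0.42 (edgeR adjusted p = 0.135) and 1.38 ± 0.57 (adjusted p = 0.187). Both passed without sham replicate 3, where they were at their lowest, with edgeR adjusted p-values of 0.038 and 0.0435, and both passed in limma-voom. With the detected-gene number as a covariate the log2 fold change of ENO1 ENSDARG00000022456 was 0.39 and that of ENO1 ENSDARG00000013750 was 0.00 (edgeR adjusted p = 1 for both), and in title letter B libraries ENO1 ENSDARG00000022456 gave 0.21. ENO3, in mammals the muscle form, had a median of 26.3 CPM in lesion libraries and 0.648 CPM in sham libraries (log2 fold change 1.55 ± 1.07, edgeR adjusted p = 0.617). The neuronal enolase eno2 had medians of 16.8 CPM in lesion libraries and 13.1 CPM in sham libraries, with -0.07 ± 0.91 as log2 fold change (edgeR adjusted p = 0.993).

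Pyruvate kinase closes the pathway. PKM ENSDARG00000099730 had 140, 253 and 472 CPM in lesion libraries, against 137, 287 and 356 CPM in sham libraries. The groups overlapped, with 2 lesion libraries above the highest sham library (log2 fold change 0.16 ± 0.22, edgeR adjusted p = 0.91).

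Lactate dehydrogenase is built from A subunits, in mammals favouring lactate formation, and B subunits. LDHA had 153, 359 and 462 CPM in lesion libraries, against 50.8, 188 and 388 CPM in sham libraries, with 9 of 10 lesion libraries above the sham median. Its log2 fold change of 0.67 ± 0.25 did not pass (unadjusted p = 0.0133, edgeR adjusted p = 0.128). Without sham replicate 9, the highest sham library, its edgeR adjusted p was 0.0425, and with the detected-gene number as a covariate its log2 fold change was 0.11 (adjusted p = 1). LDHB had 429, 530 and 636 CPM in lesion libraries, against 438, 532 and 767 CPM in sham libraries, with a 95% interval of the log2 fold change of -0.30 to 0.14. Per kilobase, LDHA averaged 152 ± 39.6 CPM in lesion libraries and 94.96 ± 43.2 CPM in sham libraries, and LDHB 327 ± 32.3 CPM in lesion libraries and 345 ± 62.7 CPM in sham libraries (SD, n = 10 each). LDHA thus held 31.2 ± 5.4% of the dehydrogenase level in lesion libraries and 21.2 ± 8.8% in sham libraries, and LDHB was the more abundant form in both groups.

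The lactate transporters were sparse. SLC16A1 ENSDARG00000068572, whose mammalian counterpart exports lactate from oligodendrocytes, was the only tested gene of 4, with 2.83, 17.5 and 49.9 CPM in lesion libraries, against 0, 31.7 and 110 CPM in sham libraries. The groups overlapped and the log2 fold change was -1.02 ± 0.71 (edgeR adjusted p = 0.622). SLC16A3 ENSDARG00000045051, in mammals the transporter of glycolytic tissues, had counts in 4 of 10 lesion libraries and 3 of 10 sham libraries and was not tested.

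Glycogen phosphorylase releases glucose 1-phosphate from glycogen. PYGL, on chromosome 13 (36720939 to 36737207), had 0, 6.63 and 17.4 CPM in lesion libraries, against 18.0, 74.8 and 154 CPM in sham libraries. The groups did not overlap, although the highest lesion value and the lowest sham value lay close together. Lesion replicates 1 and 9 had no PYGL counts. PYGL fell 11.5-fold, a log2 fold change of -3.53 ± 0.79 (95% interval -5.17 to -1.88; edgeR adjusted p = 0.00465). The call was lost with the detected-gene number as a covariate (log2 fold change -1.80, edgeR adjusted p = 0.876) and in the title letter A libraries (-4.26, adjusted p = 0.071), and was kept in the title letter B libraries (-2.89, adjusted p = 0.0226). PYGL was the only tested gene of the list that had libraries without a count in the lesion group and none in the sham group, while 11 tested genes had libraries without a count in the sham group alone.

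The other phosphorylase genes did not pass. PYGM ENSDARG00000013317, the muscle type in mammals, had 0.126, 47.1 and 105 CPM in lesion libraries, against 0.243, 95.5 and 272 CPM in sham libraries (log2 fold change -1.22 ± 0.66, edgeR adjusted p = 0.417). PYGB, the brain type in mammals, had 0, 31.4 and 56.7 CPM in lesion libraries, against 0, 34.2 and 77.1 CPM in sham libraries (log2 fold change -0.18 ± 0.89, edgeR adjusted p = 0.985). Per kilobase, PYGL averaged 2.18 ± 2.04 CPM in lesion libraries and 25.1 ± 12.1 CPM in sham libraries, and PYGB 10.3 ± 6.29 CPM in lesion libraries and 11.7 ± 8.53 CPM in sham libraries. PYGL held 14.6 ± 17% of the phosphorylase level in lesion libraries and 42.1 ± 15.5% in sham libraries.

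Glycogen synthesis was measured through GYS1, the synthase, and GBE1 ENSDARG00000099524, the branching enzyme. GYS1 had a median of 14.8 CPM in lesion libraries and 7.54 CPM in sham libraries, and its highest values were 53.5 CPM in a lesion library and 63.1 CPM in a sham library. GBE1 ENSDARG00000099524 had medians of 6.82 CPM in lesion libraries and 12.9 CPM in sham libraries. Their 95% intervals on the log2 scale ran from -2.91 to 2.69 and from -2.85 to 1.23. The conversion of glucose 1-phosphate was led by pgm1, with 26.0, 79.1 and 125 CPM in lesion libraries, against 41.7, 78.6 and 171 CPM in sham libraries (log2 fold change -0.19 ± 0.30, edgeR adjusted p = 0.93). UGP2 ENSDARG00000008200, which makes the UDP-glucose that glycogen synthase uses, had 5.21, 54.7 and 106 CPM in lesion libraries, against 21.0, 95.3 and 139 CPM in sham libraries. Of the lesion values 9 of 10 lay below the sham median, and the log2 fold change of -0.76 ± 0.37 did not pass (edgeR adjusted p = 0.317).

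Of the 12 genes not tested, 10 had under 100 counts in all 20 libraries together. Their totals ran from 1 count for GPI ENSDARG00000103826 to 1022 for SLC16A3 ENSDARG00000045051. Among them were ALDOA ENSDARG00000034470 with 20 counts, ALDOC ENSDARG00000057661 with 64, all in 2 lesion libraries, SLC16A1 ENSDARG00000016963 with 29 and SLC16A3 ENSDARG00000028583 with 167. The second PKM, PYGM and GBE1 genes had 2, 9 and 10 counts. Reads shared between near-identical copies may have been lost or divided in counting, so such low totals are uncertain.

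**Figure D3:**
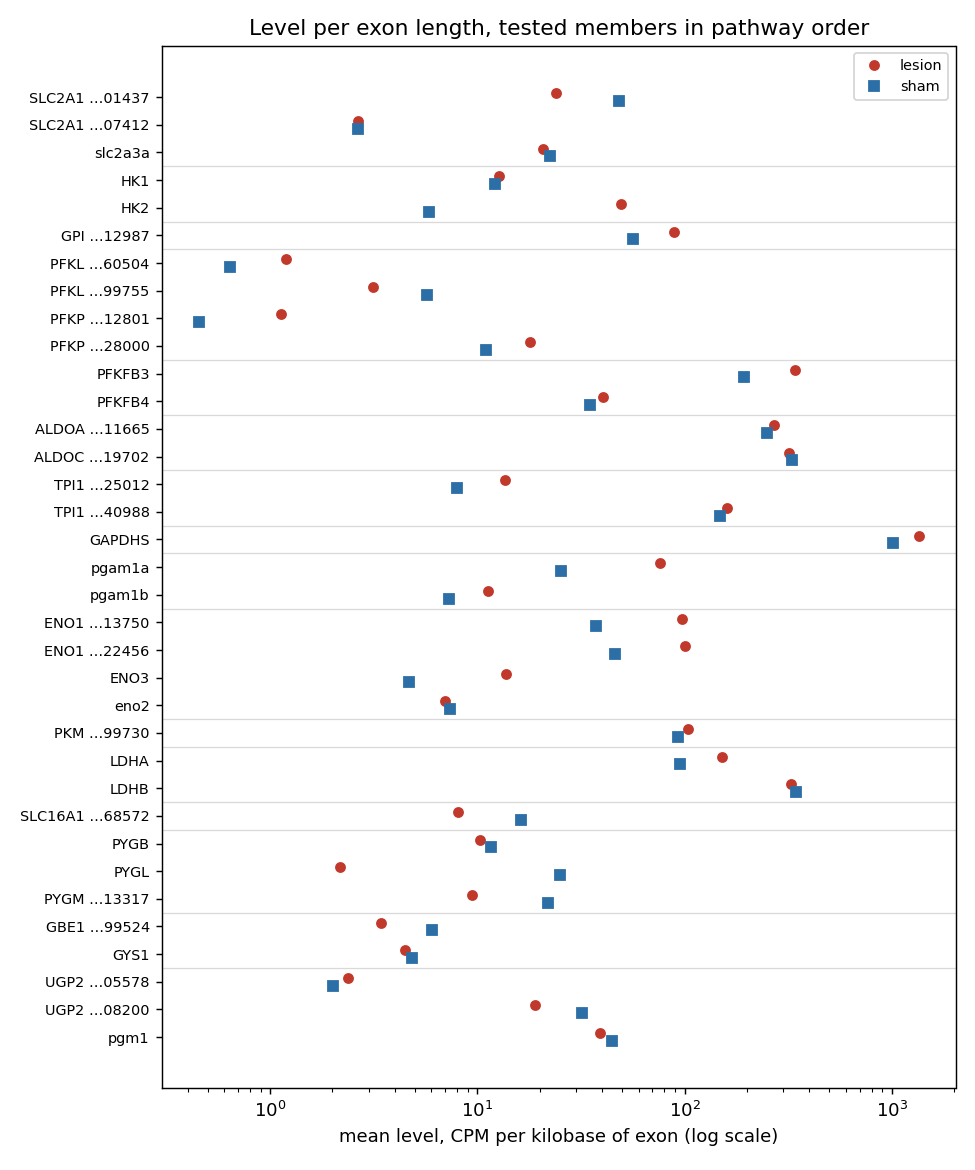
Mean level in CPM per kilobase of exon (x axis, log scale) of the 35 tested genes in pathway order, lesion as red circles and sham as blue squares. GAPDHS is the highest at 1359 CPM per kilobase in lesion libraries and 1009 in sham libraries. PFKP ENSDARG00000012801 is among the lowest, at 1.13 in lesion libraries and 0.452 in sham libraries. The leading phosphofructokinase gene, PFKP ENSDARG00000028000, is at 17.98 in lesion libraries and 10.97 in sham libraries.

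Whether isozymes of a step moved unequally was asked through the log2 ratio of their counts within each library, with 0.5 added to each count. The ratio does not depend on library scaling where both counts are well above 0. Where a gene had no counts, as HK2 in some sham and PYGL in some lesion libraries, the added 0.5 and the depth shaped the ratio. The lesion minus sham difference of HK1 over HK2 was -4.97, and -4.66 with 1 added instead. There were 28 pairs of tested genes in a step, and 0 passed after Benjamini-Hochberg adjustment, with 7 at an unadjusted p under 0.05 (permutation test, two-sided, 100000 resamples). The log2 ratio of LDHA over LDHB averaged -0.72 ± 0.37 in lesion libraries and -1.57 ± 0.82 in sham libraries, a difference of 0.85 (permutation p = 0.00588, adjusted p = 0.0774). The log2 ratio of HK1 over HK2 averaged -1.65 ± 1.21 in lesion libraries and 3.32 ± 5.27 in sham libraries (permutation p = 0.00759, adjusted p = 0.0774). That of SLC2A1 ENSDARG00000001437 over SLC2A1 ENSDARG00000007412 averaged 3.61 ± 1.29 in lesion libraries and 7.33 ± 3.66 in sham libraries (permutation p = 0.00829, adjusted p = 0.0774). For PYGB over PYGL the averages were 2.75 ± 5.30 in lesion libraries and -2.77 ± 4.33 in sham libraries (permutation p = 0.0199, adjusted p = 0.111). For pgam1a over pgam1b the ratio was 2.41 ± 0.98 in lesion libraries and 2.04 ± 2.42 in sham libraries (permutation p = 0.657), so that an unequal change of the pair was not detectable. For PFKFB3 over PFKFB4 it was 3.28 ± 0.78 in lesion libraries and 2.66 ± 0.56 in sham libraries (permutation p = 0.0559).

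Taken by stretch of the pathway, transport to phosphofructokinase and its regulators had 12 tested genes with 1 higher, 0 lower and a median log2 fold change of 0.43. Aldolase to pyruvate kinase had 12 tested genes with 2 higher, 0 lower and 10 positive, with a median of 0.52. The lactate genes had 3 tested with 0 past edgeR's threshold and a median of -0.08; LDHA alone had an unadjusted p under 0.05, and limma-voom called it while DESeq2's test did not. The glycogen genes had 8 tested with 0 higher, 1 lower and 7 negative, with a median of -0.47. Over all tested genes 4.34% were higher, 3.24% were lower and 51.6% had a log2 fold change above 0, with a median of 0.03. Summed over all genes of a stretch, the aldolase to pyruvate kinase level was 3815, 4613 and 5419 CPM in lesion libraries, against 2543, 3636 and 4150 CPM in sham libraries, where GAPDHS carried the largest part. The summed glycogen level was 154, 240 and 362 CPM in lesion libraries, against 339, 453 and 576 CPM in sham libraries, with overlap between the highest lesion and lowest sham values. The transport to phosphofructokinase sum was 1393, 1963 and 2510 CPM in lesion libraries, against 919, 1262 and 1475 CPM in sham libraries, most of it PFKFB3. The lactate sum was 618, 942 and 1028 CPM in lesion libraries, against 571, 817 and 1008 CPM in sham libraries, with the least separation of the 4. All 47 genes together took 0.736 ± 0.0637% of counts in lesion libraries and 0.601 ± 0.0546% in sham libraries (SD, n = 10 each).

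**Figure D4:**
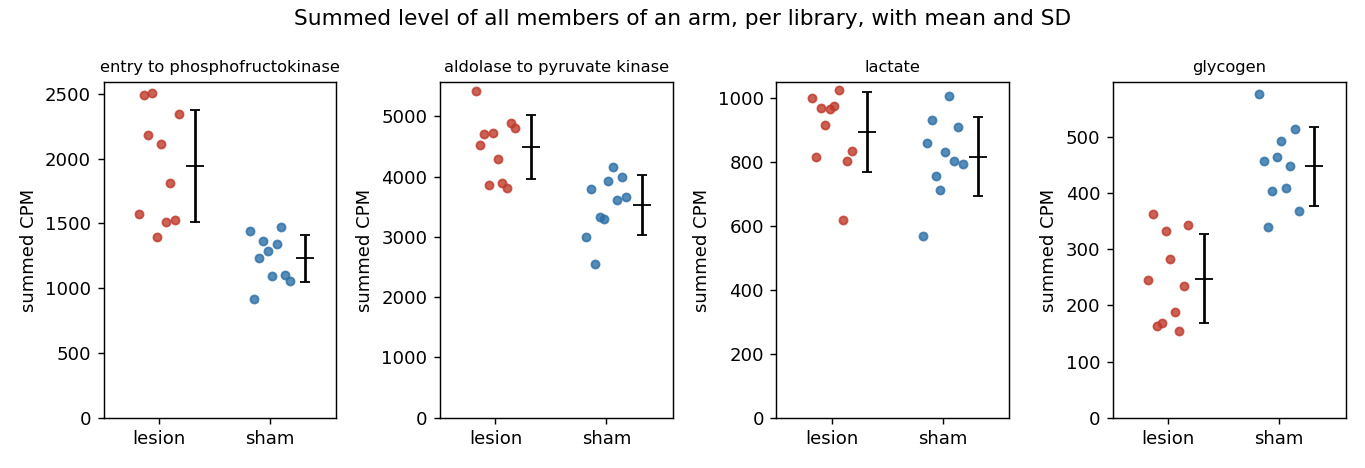
Summed CPM (y axis, from 0) of all listed genes in each stretch of the pathway, per library (points; 10 lesion in red, 10 sham in blue), with mean and SD. Glycogen sums are mostly lower in lesion libraries (154 to 362 CPM, against 339 to 576 CPM in sham libraries), while aldolase to pyruvate kinase sums are mostly higher (3815 to 5419 CPM, against 2543 to 4150 CPM in sham libraries).

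The genes differed in how evenly they were measured. The 11 tested genes with medians of at least 100 CPM in both groups had coefficients of variation of 9.88 to 46.1% among lesion libraries and 16.9 to 61.5% among sham libraries. The other 24 had 21.0 to 110% among lesion libraries and 35.2 to 244% among sham libraries. In 29 of the 35 the variation was larger in the sham group. Of the 47 genes, 35 to 40 had a count in a given lesion library and 30 to 37 in a given sham library. The wider spread in sham libraries thus went together with fewer detected genes there.

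Genes next to these pathways were counted from 8 further lists. Of all tested genes, 4.34% were higher and 3.24% lower in edgeR's test. Of 12 tested glycogen genes outside the list, 1 was lower and 0 were higher. That gene was PPP1R3C ENSDARG00000014554, which in mammals brings protein phosphatase 1 to glycogen and favours synthesis. It had 14.4, 27.2 and 84.3 CPM in lesion libraries, against 80.1, 173 and 506 CPM in sham libraries, and 9 sham libraries exceeded the highest lesion library. PPP1R3C ENSDARG00000014554 fell, with -2.44 ± 0.36 as log2 fold change (edgeR adjusted p = 4.4e-05), a call lost with the detected-gene number as a covariate and in the title letter B libraries. The second gene of that symbol, PPP1R3C ENSDARG00000071005, did not pass (log2 fold change -1.05 ± 0.38, edgeR adjusted p = 0.107). All 10 lesion libraries lay below its sham median. It passed in DESeq2's test (adjusted p = 0.0383) and in 1 of 20 edgeR fits made without a single library (sham replicate 2, adjusted p = 0.0294). Of 20 tested genes for the fate of pyruvate and 14 of the citric acid cycle, 1 was higher in each, which was the same gene, the mitochondrial malate dehydrogenase MDH2. It had 202, 303 and 385 CPM in lesion libraries, against 82.5, 206 and 284 CPM in sham libraries (log2 fold change 0.61 ± 0.18, edgeR adjusted p = 0.0403), and the call held in 9 of 20 fits made without a single library. It was also lost with DESeq2 size factors, in DESeq2's test, with the detected-gene number as a covariate, in title letter A or B libraries alone and without lesion replicates 2, 9 and 10. Of 16 tested hypoxia genes, 1 was higher, NDRG1 ENSDARG00000032849, a hypoxia-responsive gene in mammalian cells, with 188, 307 and 455 CPM in lesion libraries, against 73.4, 138 and 303 CPM in sham libraries. Its log2 fold change was 0.92 ± 0.24 (edgeR adjusted p = 0.0172), and the call was lost with the detected-gene number as a covariate, in the title letter B libraries and without lesion replicates 2, 9 and 10. At an unadjusted p under 0.05 there were 5 of the 16, beside 15.7% of all tested genes, and DESeq2's test called 1 and limma-voom 2. Besides NDRG1 these 5 were HIF1A (log2 fold change 0.53), VEGFA ENSDARG00000103542 (0.72), BNIP3L ENSDARG00000028067 (0.62) and vhl (-1.34). Of the 16, 5 had a log2 fold change above 0, beside 51.6% of all tested genes. The second VEGFA and BNIP3L genes, ENSDARG00000034700 and ENSDARG00000025468, had -0.72 and -1.19. For ca9, EGLN3 and BNIP3 it was -1.44, -1.47 and -0.52, and none of these genes passed edgeR's test. The list joins regulators and responding genes, so its median log2 fold change of -0.46 gives no direction of a hypoxia response.

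No gene passed among 11 tested further family members of these enzymes and transporters, 6 of the pentose phosphate pathway, 2 of gluconeogenesis and 6 of sugar sensing in edgeR's test. At an unadjusted p under 0.05, passed by 15.7% of all tested genes, there were 1, 1, 0 and 1 genes in these lists. DESeq2's test (12.9% of all its genes) called 1, 0, 0 and 0, and limma-voom (16.9%) called 0, 1, 0 and 2. The lowest edgeR adjusted p among them was 0.0902, for BSG, the chaperone that brings monocarboxylate transporters to the membrane. BSG had 28.9, 70.1 and 91.7 CPM in lesion libraries, against 19.1, 125 and 243 CPM in sham libraries, with all 10 lesion libraries below the sham median. BSG passed in DESeq2's test and without sham replicate 3.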

How the data were processed

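The authors deposited 1 table of raw read counts per gene for 20 libraries, with exon lengths. The submitters' processing notes name bcl2fastq 2.19.1, the aligner GSNAP, featureCounts 1.6.2 and build GRCz10. The table used Ensembl 87 gene models per the file headers, where mapping quality was at least 1 and strand was ignored, so that overlapping antisense genes cannot be told apart. A set of 92 spike-in sequences with 2 counts was left out. Symbols for 26433 genes came from a table of Ensembl names, and no column was left unused.

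Counts were tested with edgeR 4.0.16 in R 4.3.3 (filterByExpr, TMM, quasi-likelihood F test, group as the only term, two-sided). Standard errors were taken from the F statistic. Alternatives used DESeq2 1.42.0, limma 3.58.1, other covariates and fewer libraries. Pair ratios added 0.5 to counts. The fit was also run on simulated counts, drawn with the same dispersion in both groups. Those counts lack the wider spread of the sham libraries, so no conclusion is drawn from them here. CPM of 3 counts in an average sham library was 0.37, and such floors cover counting error only.

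The genes and lists were chosen with earlier results of these data known. Values were given for genes past the threshold, for the others of their step and for the leading gene of each step; other genes given singly, among them slc2a3a, LDHA, UGP2 ENSDARG00000008200, BSG and the PGK2 gene, were added after their values were seen.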

Additional observations from a re-analysis of the deposited data

Results flagged for a closer look

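In 5 of 76 groups of 10 libraries examined, a single library lay far from the others. The rule flags about 1 in 20 groups of normally distributed values, and its rate for skewed levels such as these was not tested. SLC2A1 ENSDARG00000007412 reached 37.83 CPM in sham replicate 9, where the next sham library had 6.433 CPM. The same library held the highest eno2 level, 87.25 CPM, with the next sham library at 38.64 CPM. The pgam1b level was 50.56 CPM in sham replicate 2 and 24.84 CPM in the next sham library. SLC16A1 ENSDARG00000068572 had a far library in each group, lesion replicate 3 at 49.87 CPM with the next at 26.9 CPM, and sham replicate 6 at 109.9 CPM with the next at 53.05 CPM. None of the 4 genes passed edgeR's test.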

How the results depend on the processing

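The main fit gave 3 higher and 1 lower of the list, and 454 higher and 339 lower of all genes. These counts moved with the low-count filter, the tool and the detected-gene covariate. They also moved in fits of a single title letter, which had fewer libraries. Without the filter 5 of the list were higher, and 2780 higher and 758 lower of all genes. With the detected-gene number as a covariate 1 of the list, PFKFB3, was higher and 0 were lower, with 140 and 36 of all genes. Title letter A gave 0 lower of the list and 201 lower of all genes. Title letter B gave 0 higher of the list, with 207 and 40 of all genes. Limma-voom gave 10 higher of the list and 1380 of all genes. DESeq2's test gave 2 lower of the list, PYGL and SLC2A1 ENSDARG00000001437, with 1523 higher and 682 lower of all genes. The median log2 fold change of all genes moved to 0.70 in limma-voom, 0.21 without the filter, 0.15 in DESeq2 and -0.13 with the detected-gene covariate. Leaving out single libraries gave 3 to 5 higher and 1 to 2 lower of the list and 0 to 5 pairs past the threshold, and PFKFB3, GAPDHS, pgam1a and PYGL were called in all 20 of these fits. Among the 11 genes and 7 pairs with an unadjusted p under 0.05, the direction turned for GPI ENSDARG00000012987, -0.28 with the detected-gene covariate, and for the ratio of PYGL over PYGM ENSDARG00000013317, 0.74 in title letter B libraries. The cause was not tested. DESeq2 size factors and the title letter as a term kept the 4 calls. With the title letter as a term, 459 were higher and 332 lower of all genes. No paired analysis was possible because the replicate numbers follow the order of accession and pair no samples.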
